A study of Mus musculus with 3 samples.

Results

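The acute phase proteins are plasma and membrane proteins whose genes the liver raises in inflammation. A set of 10 such genes was measured in normal mouse liver, namely the serum amyloid A genes Saa1 and Saa2, the pentraxin genes Crp and Apcs, the orosomucoid genes Orm1, Orm2 and Orm3, the haptoglobin gene Hp, the lipocalin gene Lcn2 and the metalloreductase gene Steap4. The 10 genes were chosen by name, and their measurements were taken as all table entries that carried the Ensembl identifier of one of them. Of the 10 genes, 9 had such an entry, out of 13367 genes with a value in the whole series. They accounted for 23, 22 and 26 of the 71716, 74243 and 74236 entries in replicates 1, 2 and 3.

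The samples were 3 RNA sequencing libraries of liver, labelled WT, healthy, male and C57BL/6, an inbred laboratory strain, with no treatment or age given in the labels. The series concerns driver genes in hepatocellular carcinoma, and tumours were not analysed here, so there is a single group and nothing to contrast it with. Whether each replicate is a different animal is not stated in the labels, and the spread between them may be technical. Sex-linked genes went against the label, since Xist, expressed from the inactive X chromosome, was at 39.6, 34.2 and 38.2 FPKM in replicates 1, 2 and 3, while none of Uty, Ddx3y, Eif2s3y and Kdm5d, 4 genes of the Y chromosome, had a value. The liver label was matched by its markers, since all 5 hepatocyte markers had at least 1 FPKM and summed to 31452, 35460 and 34302 FPKM.

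Each table lists parts of assembled transcripts, such as first exons, last exons and skipped exons, each with an FPKM, a fragment number scaled by transcript length and sequencing depth. For each gene the FPKM of all first exons were added up, and so were those of all last exons, and the larger total was taken, or a single internal entry where that was larger still. The tables hold no read counts, and so the depth behind each value is unknown. Positions are on GRCm38. Values are given for replicates 1, 2 and 3 in that order, and mean ± SD is over n = 3 libraries. These are bulk samples, in which fewer cells of a type and less RNA per cell cannot be told apart.

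In inflammation, macrophages release interleukin-6 and interleukin-1, and hepatocytes respond through STAT3, NF-kB and C/EBP factors by making more of the positive acute phase proteins. Serum amyloid A rides on high density lipoprotein, pentraxins bind microbial and dead cell surfaces, orosomucoids are carriers of small lipophilic molecules, and haptoglobin captures free haemoglobin. Several of the genes exist as close copies side by side, and their control regions can be set beside each other.

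The promoter windows of the copies listed here are shown because both the serum amyloid pair and the orosomucoid pair can be compared letter by letter, and that of Steap4 because it held the largest variety of motifs. Each runs from 250 bases before to 50 bases after the RefSeq start site on GRCm38.p6, 5′ to 3′. Capitals mark matches on either strand to TTGCNNAA (C/EBP), TTCNNNGAA (STAT), GGGNNTTCC (NF-kB) and the core promoter motif TATAAA.
Saa1, chr7:46742931-46743230, minus strand: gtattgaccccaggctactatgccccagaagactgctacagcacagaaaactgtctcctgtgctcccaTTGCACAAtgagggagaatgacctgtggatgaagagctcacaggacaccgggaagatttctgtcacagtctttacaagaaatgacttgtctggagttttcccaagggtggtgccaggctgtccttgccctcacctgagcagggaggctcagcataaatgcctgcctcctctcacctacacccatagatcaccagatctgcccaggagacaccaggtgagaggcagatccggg
Saa2, chr7:46751583-46751882, plus strand: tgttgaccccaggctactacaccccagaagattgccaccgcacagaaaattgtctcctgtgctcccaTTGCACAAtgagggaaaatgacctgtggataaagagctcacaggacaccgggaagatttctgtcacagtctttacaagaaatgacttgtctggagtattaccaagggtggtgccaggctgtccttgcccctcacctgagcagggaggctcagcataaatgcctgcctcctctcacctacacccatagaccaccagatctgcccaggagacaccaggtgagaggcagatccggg
Orm2, chr4:63362199-63362498, plus strand: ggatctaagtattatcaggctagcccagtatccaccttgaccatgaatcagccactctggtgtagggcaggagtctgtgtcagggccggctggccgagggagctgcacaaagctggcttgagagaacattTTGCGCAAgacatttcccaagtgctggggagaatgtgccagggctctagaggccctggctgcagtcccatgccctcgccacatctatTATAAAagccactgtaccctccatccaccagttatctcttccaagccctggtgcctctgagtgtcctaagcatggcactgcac
Orm3, chr4:63355908-63356207, plus strand: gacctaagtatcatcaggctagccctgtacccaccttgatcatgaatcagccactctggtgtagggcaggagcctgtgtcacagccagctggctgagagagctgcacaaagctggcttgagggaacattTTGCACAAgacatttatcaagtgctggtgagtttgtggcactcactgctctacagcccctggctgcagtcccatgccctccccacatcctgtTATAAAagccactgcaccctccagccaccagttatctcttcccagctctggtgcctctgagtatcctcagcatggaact
Steap4, chr5:7960222-7960521, plus strand: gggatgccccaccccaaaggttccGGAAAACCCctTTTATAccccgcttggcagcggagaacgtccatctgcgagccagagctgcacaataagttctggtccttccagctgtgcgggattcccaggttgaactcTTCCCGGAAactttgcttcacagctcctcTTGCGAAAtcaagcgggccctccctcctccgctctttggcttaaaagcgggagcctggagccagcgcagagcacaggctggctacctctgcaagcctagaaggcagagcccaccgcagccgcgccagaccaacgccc

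The Saa1 and Saa2 windows were identical at 287 of 301 aligned positions (95.3%), and those of Orm2 and Orm3 at 263 of 305 (86.2%). By comparison, the windows of Saa1 and Orm2, which are unrelated genes, aligned at 46.7% identity. Windows were found for 8 of the 10 genes. The motif TTGCNNAA occurred in 6 of the 8 (Saa1, Saa2, Lcn2, Orm2, Orm3 and Steap4), against 10.8% of all 32851 windows. It read TTGCACAA in Saa1, Saa2 and Orm3 and TTGCGCAA in Orm2. The looser form TTNCNNAA, which includes every TTGCNNAA, matched 7 of the 8 windows against 40.7% of all windows. TATAAA was in 4 of the 8 (Orm2, Orm3, Crp and Steap4), against 13.6% of all windows. It lay on the gene's own strand at -33, -29 and -31 from the start site in Orm2, Orm3 and Crp. In Steap4 it lay on the opposite strand at -215. TTCNNNGAA was in 2, Apcs and Steap4, against 8.30%, and GGGNNTTCC in 1, Steap4, against 5.82%. The sequence GGGACTTTC was in none of the 8, against 0.353% of all windows. The copies are not independent of each other, and a match in a window is a description of its letters only.

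The 9 listed genes covered more than 2 orders of magnitude, from haptoglobin down to Orm3. Their median level was 5.17 on the log2(FPKM + 1) scale, against 2.11 over all genes with a value and 2.78 over the 9827 genes that averaged 1 FPKM or more. All 9 had at least 1 FPKM in every library. Their summed value was 2869, 2158 and 2440 FPKM, which made 0.724 ± 0.0941% of the FPKM summed over all genes. Hp contributed 58.5 ± 4.91% of that sum and Orm1 27.6 ± 3.08%.

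**Figure D1:**
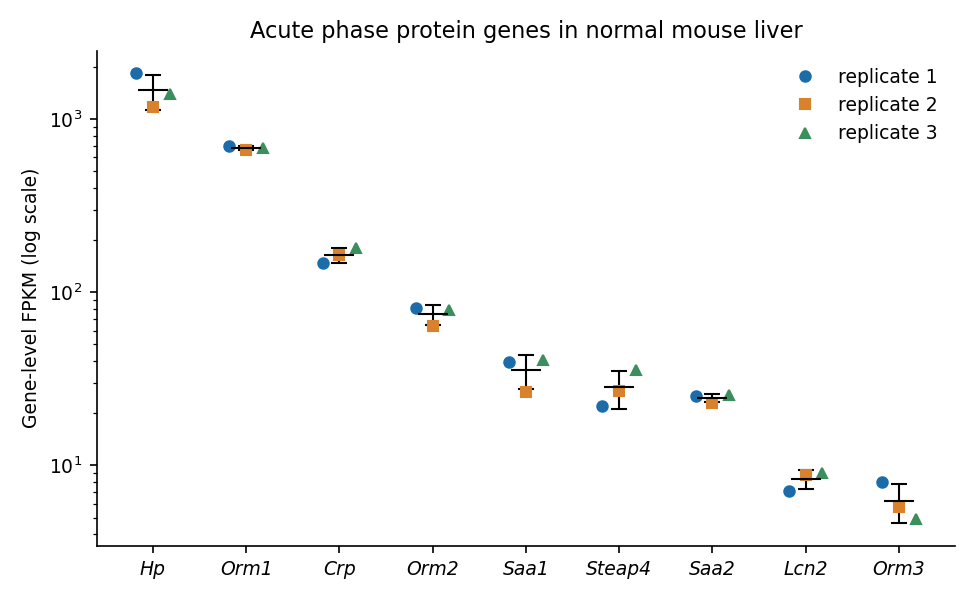
Gene-level FPKM (log axis) of the 9 acute phase protein genes with a value, with a marker for each of the 3 libraries and a black bar for the mean with its SD. Hp, at 1467 ± 336 FPKM, and Orm1, at 681 ± 20.6 FPKM, stand above the rest. The markers of Steap4 overlap those of Saa1 and those of Saa2, while every Saa1 marker lies above every Saa2 marker.

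The serum amyloid A genes lie head to head on chromosome 7. Saa1 (ENSMUSG00000074115, 46740497 to 46742980, minus strand) was at 39.5, 26.4 and 40.8 FPKM, and Saa2 (ENSMUSG00000057465, 46751790 to 46754313, plus strand) at 25.2, 22.9 and 25.4 FPKM. Both were lowest in replicate 2, and Saa1 was the higher of the pair in every library. The difference, Saa1 minus Saa2, was 0.50 ± 0.26 on the log2(FPKM + 1) scale. With 3 libraries of 1 group no exact test of it can reach 0.05, so none was made.

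The coding sequences of Saa1 and Saa2 were identical at 348 of 366 bases (95.1%). Of the 50-base windows along the Saa1 transcript, 14.8% occurred letter for letter in a transcript of another gene, as did 13.3% of those of Saa2. Fragments from such stretches could be counted for either copy, so the separate values are uncertain. The related Saa4, the constitutive form carried on lipoprotein, was at 72.8, 73.4 and 81.0 FPKM, above both Saa1 and Saa2 in every library. Saa3, known in the mouse mainly from macrophages and fat, was at 9.03, 9.23 and 7.93 FPKM, below both. The Saa1 and Saa3 coding sequences were identical at 75.7% of aligned positions, and those of Saa1 and Saa4 at 65.0%.

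Saa2 also showed a choice between splice acceptors 3 bases apart at its second exon. The exon beginning at 46752287 carried 18.8, 15.3 and 14.5 FPKM, and the exon beginning at 46752290 carried 6.36, 3.53 and 8.12 FPKM. The upstream acceptor thus took 74.7, 81.2 and 64.1% of the pair, a mean of 73.4 ± 8.64%, and was the more used one in each library. The letters around the exon junction, 10 bases of exon 1 followed by the start of exon 2, are shown with the 3 added bases in capitals.
Saa2 upstream acceptor, chromosome 7, plus strand: gagacaccagCAGgatgaagcta
Saa2 downstream acceptor, chromosome 7, plus strand: gagacaccaggatgaagcta

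The added bases lie before the start codon, which begins at base 5 of exon 2 with the upstream acceptor and at base 2 with the downstream one, so the annotated coding sequence is the same in both. Across the series, 60 pairs of skipped-exon entries with acceptors 3 bases apart and the same flanks were listed in at least 1 library, and 26 of them in all 3. In these 26 the upstream acceptor took a median of 58.2%, with quartiles at 35.7 and 87.2%, and Saa2 ranked 12th from the top. Its share varied by 17.1 percentage points between libraries, against a median of 10.1 points over the 26.

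A first exon of Saa2 that runs on through intron 1 to the end of exon 2 (46751790 to 46752381) was not listed in replicate 1 and carried 4.09 and 2.75 FPKM in replicates 2 and 3. That was 0, 17.9 and 10.8% of the gene's first exon total. The listed first exon began 43 bases before the RefSeq start site of Saa2 used for the promoter window. In Saa1, replicate 3 alone had a second, unannotated first exon (46742733 to 46742948) of 1.97 FPKM, which begins directly behind the annotated first exon.

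**Figure D2:**
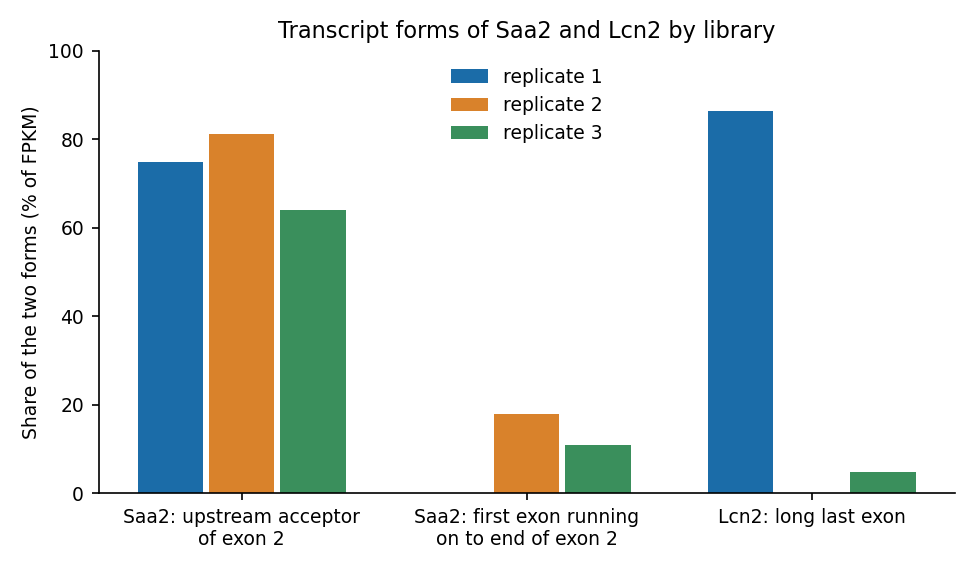
Share, in percent of FPKM, of the first-named form of Saa2 and Lcn2 transcripts in each of the 3 libraries. The upstream acceptor of Saa2 stays between 64.1 and 81.2%, while the long last exon of Lcn2 takes 86.4% in replicate 1 and at most 4.89% in the other libraries.

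Of the pentraxins on chromosome 1, Crp was listed and Apcs was not. Crp (ENSMUSG00000037942, 172698055 to 172833031, plus strand), the C-reactive protein, was at 148, 163 and 181 FPKM, a mean of 164 ± 16.4 FPKM, lowest in replicate 1 and highest in replicate 3. Nearly all of it came from the pair of exons of the coding transcript, with 147, 163 and 180 FPKM at its last exon (172698414 to 172699962). Its first exon was listed from 172698056, which is the start of a noncoding transcript and 1 base inside that of the coding one. An unannotated first exon 124868 bases beyond that last exon (172824830 to 172829647), inside the long intron of the noncoding transcript, added 1.11 FPKM in replicates 1 and 3 and was not listed in replicate 2. Apcs (ENSMUSG00000026542, 172893961 to 172895041, minus strand) encodes serum amyloid P, the major acute phase pentraxin of mice. It had no entry in any library. Apcs has 1 annotated transcript, and 20.0% of protein-coding genes with 1 transcript had a value here, against 64.7% of those with several, so its absence from the tables does not show that it was silent. Of the 5 members with 1 annotated transcript, 4 had a value. The coding sequences of Apcs and Crp were identical at 60.0% of aligned positions, and no 50-base window of the Apcs transcript occurred in another gene.

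The orosomucoids, also known as alpha-1-acid glycoproteins, lie within 21319 bases of chromosome 4 in the order Orm1, Orm3, Orm2, all on the plus strand. Orm1 (ENSMUSG00000039196, 63344560 to 63348163) was at 702, 661 and 679 FPKM. Orm2 (ENSMUSG00000061540, 63362449 to 63365878) was at 80.6, 63.5 and 79.4 FPKM. Orm3 (ENSMUSG00000028359, 63356162 to 63359511) was at 8.01, 5.78 and 4.91 FPKM. The steps were about even on the log scale, and no library of one gene overlapped a library of the next. Orm1 exceeded Orm2 by 3.18 ± 0.15, and Orm2 exceeded Orm3 by 3.40 ± 0.32 on the log2(FPKM + 1) scale. In FPKM, Orm1 was 8.71, 10.4 and 8.56 times Orm2, and Orm2 was between 10.1 and 16.2 times Orm3.

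The graded levels stand beside close sequences, as Orm1 and Orm2 coding sequences were identical at 558 of 621 bases (89.9%), Orm2 and Orm3 at 87.9% and Orm1 and Orm3 at 86.0%. The share of 50-base windows found in another gene was 20.4% for Orm1, 22.7% for Orm2 and 3.59% for Orm3. The values of the copies are uncertain for that reason, and how fragments were divided among them was not tested. Orm1 was listed through its last exon (63347970 to 63348163), and its annotated first exon (63344560 to 63344714) was in no table. Replicate 2 alone listed an unannotated first exon ending 96 bases before the annotated start (63344033 to 63344464), at 62.8 FPKM or 9.50% of the gene's value there. Orm3 was likewise listed through its last exon (63359317 to 63359511) and its second exon (63356571 to 63356713), and Orm2 through its first and last exons with the same value at each end.

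Haptoglobin (Hp, ENSMUSG00000031722, chromosome 8, 109575128 to 109579172, minus strand) was the highest of the 10 genes and ranked 33 among all measured genes by mean log2(FPKM + 1). Its values were 1837, 1179.9 and 1385 FPKM, highest in replicate 1 and lowest in replicate 2. Hp exceeded Orm1, the next in order, by 1.08 ± 0.28 on the log2(FPKM + 1) scale, and the libraries of the 2 genes did not overlap. Nearly all of it came from 1 start, as the first exon of the coding transcript (109579010 to 109579172) held 1836, 1179.8 and 1385 FPKM. Those of the noncoding transcripts held at most 0.806 FPKM.

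Within the last exon of Hp, entries on the opposite strand were also listed under its identifier. These were a first exon of 16.4 FPKM in replicate 1 (109575176 to 109575286) and, in replicate 3, a first exon (109575132 to 109575388) and a last exon (109575443 to 109575645) of 18.9 FPKM each. They equalled 0.892 and 1.36% of the Hp value and were left out of it. The labels' protocol names no step that marks strand, and the source of these entries was not tested. Of the 50 most abundant genes, 9 had an opposite-strand end in at least 1 library and 0 had one in all 3, and among all ends with a gene the share was 0.879, 0.953 and 0.757%.

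Lcn2 (ENSMUSG00000026822, chromosome 2, 32384633 to 32388252, minus strand) encodes lipocalin 2, which starves bacteria of iron by binding their siderophores and is also stored in neutrophil granules. It was at 7.13, 8.78 and 9.09 FPKM, a mean of 8.33 ± 1.05 FPKM, lowest in replicate 1. The difference, Lcn2 minus Saa1, was -1.95 ± 0.42 on the log2(FPKM + 1) scale, and Lcn2 was the lower in every library.

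The form of the Lcn2 transcript differed between libraries much more than its level. The short last exon of the main coding transcript (32384633 to 32384884) held 0.967, 8.78 and 8.64 FPKM. The long last exon of a noncoding transcript (32384633 to 32385520), which keeps the final intron and is 636 bases longer, held 6.16, 0.00194 and 0.444 FPKM. Its share was therefore 86.4% in replicate 1 but 0.0221 and 4.89% in replicates 2 and 3. Replicate 1 was also the only library to list a first exon, that of another coding transcript (32388175 to 32388252), at 6.09 FPKM. It starts 455 bases before the main one. Replicate 1 thus stood apart from replicates 2 and 3 in the form of its Lcn2 entries.

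Neutrophil markers were low in all 3 libraries and gave no single order of them. Of 9 markers 6 had a value, and they summed to 2.26, 8.21 and 7.75 FPKM. S100a9, at 0, 5.97 and 3.57 FPKM, was the largest part in replicates 2 and 3, and S100a8 in replicate 1. S100a8 was highest in replicate 1, at 2.11, 1.38 and 2.05 FPKM. The other 4 were under 1 FPKM in every library, with Retnlg, Ngp and Ltf lowest in replicate 1 and Camp in replicate 2, and Ly6g, Mpo and Elane were not listed. Kupffer cell markers, of the resident macrophages, summed to 63.8, 110 and 100.4 FPKM over 6 genes, each of them lowest in replicate 1. Their part in the Lcn2 level was not tested.

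Steap4 (ENSMUSG00000012428, chromosome 5, 7960457 to 7982213, plus strand) encodes a membrane metalloreductase of iron and copper, known in mouse fat and liver to respond to inflammation and feeding. It was at 21.9, 27.0 and 35.6 FPKM, lowest in replicate 1 and highest in replicate 3, with the same value at its first exon (7960457 to 7960541) and its last exon (7980295 to 7982213). Steap4 exceeded Lcn2 by 1.62 ± 0.21 on the log2(FPKM + 1) scale, and did so in every library. Its relatives Steap2 and Steap3 were at 2.92 ± 0.391 and 2.93 ± 1.06 FPKM, and Steap1 had a value in replicate 3 only, of 0.177 FPKM. No 50-base window of Steap4 occurred in another gene. Adipocyte markers had a value in 2 of 5 cases, Lipe at 6.83, 4.44 and 5.77 FPKM and Cfd at 0.734 FPKM in replicate 1 only, and Adipoq, Lep and Plin1 were not listed. Their part in the Steap4 level was not tested.

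In order of level, the genes were Hp, Orm1, Crp, Orm2, Saa1, Steap4, Saa2, Lcn2 and Orm3. Of the 8 neighbouring pairs in that order, 5 did not overlap between libraries. The other 3 did overlap, namely Saa1 and Steap4 (a difference of 0.33 ± 0.44 on the log2 scale), Steap4 and Saa2 (0.17 ± 0.34) and Lcn2 and Orm3 (0.38 ± 0.48). In these 3 pairs the first was not the higher one in every library.

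The spread of the genes between libraries was close to that of other genes. The highest library was at most 1.63 times the lowest, the value of Orm3. The median SD of log2(FPKM + 1) was 0.19, against 0.22 over all genes averaging 1 FPKM or more, and 4 of 9 genes lay above that median. With first exons alone, 6 genes had a value in every library. The median SD was then 0.32, but it also counts Orm1 and Lcn2, taken as 0 where no first exon was listed. In the main values Orm1, with an SD of 0.044, and Saa2, with 0.080, had little spread. They lay at percentiles 3.31 and 10.4 of spread among all genes averaging 1 FPKM or more. Steap4 and Saa1, with 0.34 each, and Hp, with 0.32, were the most spread.

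**Figure D3:**
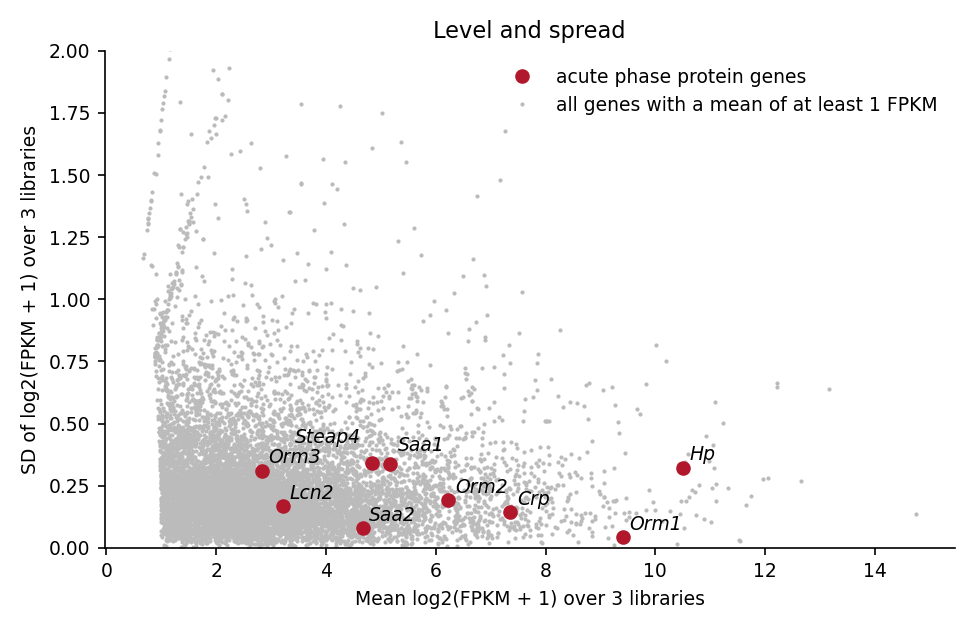
SD of log2(FPKM + 1) over the 3 libraries against its mean, for the 9 acute phase protein genes (red) and all genes averaging 1 FPKM or more (grey). The red points lie between 0.044, for Orm1, and 0.34, for Steap4 and Saa1. A few grey points above an SD of 2 are not drawn.

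The genes did not share one order of the libraries. Replicate 2 was the lowest library for 5 of 9 (Hp, Orm1, Orm2, Saa1 and Saa2) and the highest for 0 of 9. Over all genes averaging 1 FPKM or more it was the lowest for 30.7% and the highest for 32.8%. Saa1 and Saa2 are close copies, as are Orm1 and Orm2, so the 5 genes are not independent. Orm1 also varied little, at 702, 661 and 679 FPKM. Crp, Lcn2 and Steap4 were lowest in replicate 1, and Orm3 in replicate 3. The median deviation from each gene's mean was 0.045, -0.070 and 0.099 log2 units, against -0.0021, 0.012 and 0.0075 over all genes.

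**Figure D4:**
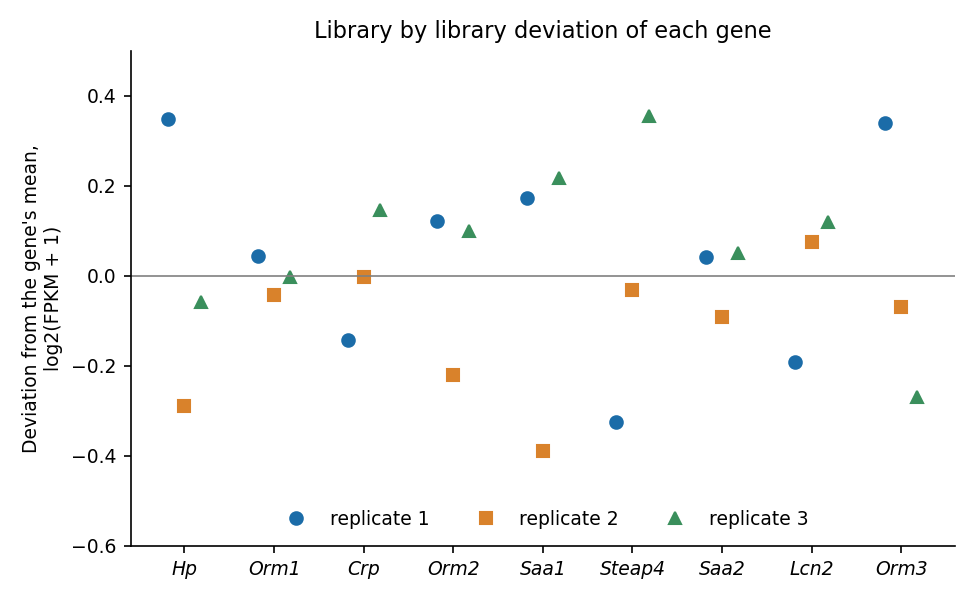
Deviation of each of the 9 genes from its own mean of log2(FPKM + 1), with a marker for each library. Replicate 2 is the lowest marker for Hp, Orm1, Orm2, Saa1 and Saa2, and replicate 1 for Crp, Lcn2 and Steap4.

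By the SD of log2(FPKM + 1) the most spread member was Steap4, at 0.341 against 0.338 for Saa1, whereas by the coefficient of variation it was Orm3, at 25.6% against 24.7% for Steap4. For Steap4, 3 genes outside the list had the nearest pattern of deviations over the 3 libraries among 9818 genes compared. These were Antxr2 at 2.82, 3.64 and 5.15 FPKM, Man2a1 at 15.5, 19.0 and 25.6 FPKM and Stim1 at 4.83, 6.03 and 8.19 FPKM. Their Euclidean distances from Steap4 were 0.016, 0.018 and 0.020 log2 units. With only 3 libraries, 69 genes lay within 0.1 of it, so the likeness is a description.

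Other genes of the response were set beside the members. Of 28 further genes listed as positive acute phase, 26 had a value, each averaging 1 FPKM or more. Saa4, described above as the constitutive form, is counted among them. The median level on the log2(FPKM + 1) scale was 5.17 for the 9 members against 8.31 for these 26. The highest were the iron hormone Hamp at 2295 ± 833 FPKM, the haem carrier hemopexin (Hpx) at 2185 ± 463 FPKM and the fibrinogen chain Fgg at 1631 ± 257 FPKM. All 12 negative acute phase genes, whose products fall in inflammation, had a value, with a median of 11.38. Alb, Apoa2 and Ahsg led them, at 27659 ± 2671, 9704 ± 3897 and 4039 ± 776 FPKM.

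**Figure D5:**
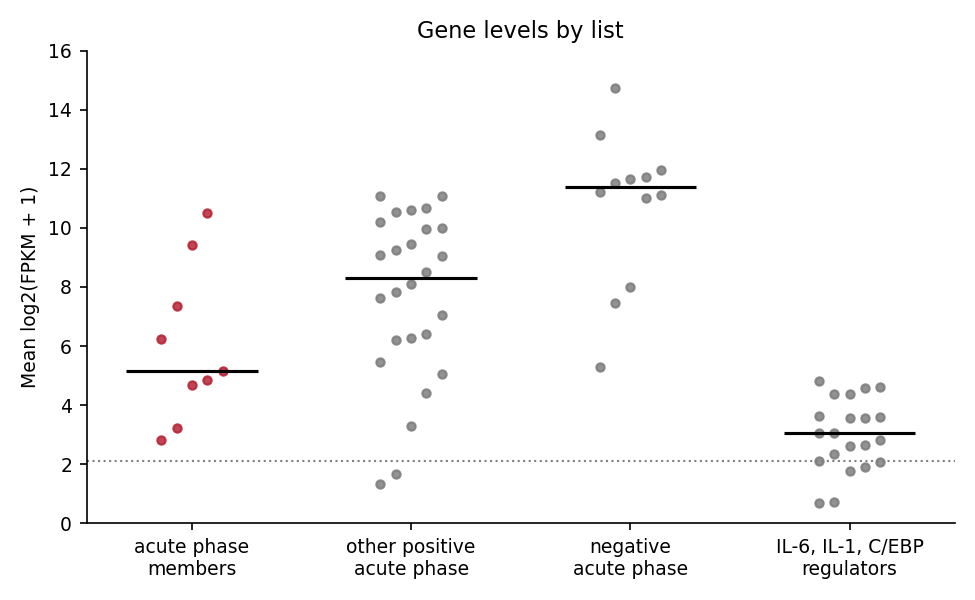
Mean log2(FPKM + 1) over the 3 libraries of each gene with a value, for the acute phase members (red) and 3 further lists (grey), with black lines at the list medians and a dotted line at 2.11, the median of all genes with a value. The members span the range from the regulators to the abundant plasma proteins.

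The members had a higher median than regulators of the response. Of 24 genes of the interleukin and C/EBP pathways, 21 had a value, 20 of them averaging 1 FPKM or more, and the median was 5.17 for the members against 3.04 for the regulators. The tumour necrosis factor receptor Tnfrsf1a was at 27.1 ± 2.71 FPKM, the interleukin-1 receptor partner Il1rap at 12.5, 26.8 and 39.4 FPKM, and the leukaemia inhibitory factor receptor Lifr at 16.8, 45.1 and 15.4 FPKM. The transcription factor Stat3 was at 16.4, 22.0 and 21.9 FPKM, and its feedback inhibitor Socs3 had a value in replicate 2 only, of 3.05 FPKM. Stat3 and Socs3 were named for their role, after their values were seen. Cebpa, Cebpb and Cebpd were not listed, and the median of 3.04 leaves them out. As for Apcs, absence from the tables does not show that they were silent.

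Among genes within 10000 bases of a member and outside the list, Saa4 beside Saa1, described above, was the highest. Txnl4b beside Hp was at 6.68, 5.94 and 4.33 FPKM and Dhx38 at 2.77, 4.22 and 4.09 FPKM. Hps5 beside Saa2 was at 1.46, 2.99 and 4.88 FPKM, Ciz1 and Ptges2 beside Lcn2 were at 11.5, 11.2 and 7.83 FPKM and at 2.02, 2.03 and 2.26 FPKM, and Col27a1 and Akna beside the orosomucoids were at 3.34, 1.12 and 2.65 FPKM and at 0.826, 0.783 and 0.986 FPKM. The neighbours Saa-ps, 1110008P14Rik, Gm11212, Gm38051 and Gm30835 were not listed.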

How the data were processed

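RNA of 3 normal liver libraries was sequenced, and each came as 1 table of transcript-structure events. Its FPKM values are the authors' own and are named so per the file headers; events at 0 are not listed. The submitters' processing notes name HISAT2 2.0.1, cutadapt 1.9.1, DESeq2, HTSeq 0.6.1 and the build mm9 without their roles, and no source names the tool behind the tables. Per the labels' protocols, RNA was either poly(A) selected or depleted of ribosomal RNA. Positions were read as GRCm38, since 82.0, 82.2 and 82.7% of first exons in replicates 1, 2 and 3 had exactly the position of a GENCODE M21 first exon. When positions were moved by 1000 bases, no more than 0.00564% did.

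Identical rows, 1440 to 1519 a library, were dropped. An end was assigned to a gene through its exact position, failing that its splice site, and failing that the identifier in the table, if on that gene's strand. The strand rule left out 0.807, 0.911 and 0.692% of ends and was added once opposite-strand entries at Hp had been seen. The calculation was tested on simulated tables. Spread is the SD of log2(FPKM + 1), and genes averaging 1 FPKM or more formed the background. A gene's value leaves out transcripts the tables do not list and can hold fragments of a copy or an overlapping neighbour, and read depth is unknown because the tables hold no counts. Python 3.11.15, numpy 2.4.6 and Biopython 1.88 were used, the last for global alignments. Promoter sequences are from RefSeq (GRCm38.p6) and transcripts from GENCODE M21.

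With 1 group and no counts, no test was made. The members, the lists and the rule for named genes (all members, the 3 highest genes of each list, neighbours and copies, and the 3 genes most like the most spread member) were chosen with earlier results of these data known. Alternatives were other gene values, other placements, other pseudocounts and minimums, and leaving out each library. Protein comparisons had been planned and coding sequences were compared instead.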

Additional observations from a re-analysis of the deposited data

How the results depend on the processing

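Of the planned and added alternatives, 1 moved a summary of the genes by more than the limit used (1 SD between libraries for levels and differences, 1.5 times for the spread and counts). With first exons alone, the median SD of log2(FPKM + 1) over the members was 0.318 instead of 0.191. In that setting 6 instead of 9 genes had a value in all 3 libraries, since Orm1, Orm3 and Lcn2 lack a first exon in at least 1 table. The 0.318 is not the median of those 6, since it also counts Orm1 and Lcn2, taken as 0 where no first exon was listed. The median level for first exons alone, 4.99, counts the same genes. The other 31 summaries, 78 gene levels and 64 pair differences stayed within the limit, and none changed sign. Much of this was fixed in advance. Leaving out 1 of 3 libraries cannot move a mean by 1 SD, so those gene levels and pair differences could not have failed. Some other settings repeated the main values, as keeping identical rows changed no gene level. The counts are therefore no measure of how stable the values are. Leaving out each library in turn gave a median level between 5.06 and 5.36 and a median spread between 0.14 and 0.21. Placement by identifier alone, or without the strand rule, moved Hp to 1479 FPKM and left the other 8 at the same values; the strand rule was chosen after seeing the data. Differences with Apcs could not be computed. With first exons alone, the levels of Orm1, Orm3 and Lcn2 and the differences that involve them could not be computed either. The counts of gene levels and pair differences leave these cases out. No paired analysis was possible because the libraries form 1 group, so that replicate numbers pair no samples; differences between genes were taken within each library. Without read counts, the precision that depth gives to the low values, such as the Lcn2 exons, is unknown.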

Other observations

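Replicate 1 was the lowest library for 3 of 9 members, against 16 of 26 further positive acute phase genes (61.5%, counting Saa4) and 37.5% of all genes averaging 1 FPKM or more. Replicate 2 was the lowest for 5 of 9 members, which include close copies and are not independent, against 5 of the 26. The complement genes C3, Cfb and C4b, chosen after their values were seen, were at 1143, 1572 and 1821 FPKM, at 141, 255 and 334 FPKM and at 89.8, 142 and 182 FPKM in replicates 1, 2 and 3. The serpins Serpina3k and Serpina3m, close copies with uncertain separate values, were highest in replicate 2, at 667, 1952 and 831 FPKM and at 768, 2098 and 991 FPKM. The mannose-binding lectin Mbl1 was at 150.2 FPKM in replicate 1, against 24.7 and 20.7 FPKM in the other libraries, while Mbl2 was at 363 ± 12.7 FPKM. No test of these differences was made.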
